A study of Mus musculus with 9 samples.

Results

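Complement genes, 9 of the 28764 gene symbols in the deposited table, were followed across phagocytes of the mouse peritoneal wall. They were chosen by name, with earlier results of these data known: C1qa, C1qb and C1qc (the 3 chains of C1q), Fcna (ficolin A), C4b, C3, Cfb (factor B), Cfp (properdin) and C6. All 9 were listed. Every animal was an F1 Cx3cr1gfp/+ Ccr2rfp/+ double-reporter mouse, so each population, the double-negative one included, carried 1 green reporter allele at Cx3cr1 and 1 red reporter allele at Ccr2. All animals had received 50 µg of a fluorescent dextran into a vein 1 day earlier and were perfused, and the peritoneal wall was digested with Liberase for 20 minutes. The age of the mice is not given in the sources used here. From CD11b-positive, Ly6G-negative cells 3 populations were sorted. Double-negative cells, with neither reporter, were dextran-positive and MHC class II-negative, formed 85 to 90% of that gate and are labelled as the majority of sessile resident tissue macrophages. CCR2-RFP cells were MHC class II-positive, made up 10 to 15% of the gate and carry the label of migratory tissue monocytes. CX3CR1-GFP cells were also MHC class II-positive, made up 0.5 to 1.5% of the gate and carry the label of sessile resident macrophages. There were 3 libraries per population; their sorts are named 1, 2A and 2B and were read as the 3 mice of the series design.

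Complement is a cascade of plasma and tissue proteins that marks microbes and dying cells for uptake and can end in a membrane pore. C1q, built from A, B and C chains in equal number, starts the classical pathway, ficolins start the lectin pathway, and factor B and properdin drive and stabilize the alternative pathway. All 3 routes meet at C3, and C6 belongs to the terminal pore. The liver makes most plasma complement, but C1q is made mainly by macrophages and dendritic cells.

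The 3 C1q genes lie side by side on the minus strand of chromosome 4 in mm10, within 18.7 kb, in the order C1qb (136880129 to 136886187), C1qc (136889804 to 136893065) and C1qa (136895917 to 136898803). C4b (34728380 to 34743882), Cfb (34856374 to 34862518) and C3 (57203970 to 57228136) lie on the minus strand of chromosome 17. Fcna (25624666 to 25628030) is on the minus strand of chromosome 2, Cfp (20925454 to 20931555) on that of chromosome X and C6 (4727175 to 4814967) on the plus strand of chromosome 15. RefSeq promoter windows (GRCm38.p6, 250 bases before to 50 after the gene start) were given for 6 of the 9 genes. C1qa, C4b and Cfb were not among them. The stretches before the annotated starts of C1qb, C1qc, Fcna and C6 are shown because these genes were highest in the same population. Capitals mark the MAF half-site letters TGCTGA and the PU.1-type core letters GAGGAA on either strand; no marked stretch of one motif overlapped the other.
C1qb, chr4:136886201-136886450, minus strand: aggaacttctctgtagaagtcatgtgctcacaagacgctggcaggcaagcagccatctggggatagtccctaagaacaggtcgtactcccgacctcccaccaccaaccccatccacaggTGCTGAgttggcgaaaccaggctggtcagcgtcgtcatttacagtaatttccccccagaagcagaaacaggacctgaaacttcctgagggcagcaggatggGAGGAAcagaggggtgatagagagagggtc
C1qc, chr4:136893066-136893164, minus strand: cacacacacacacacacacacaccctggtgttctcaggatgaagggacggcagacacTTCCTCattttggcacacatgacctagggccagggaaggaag
Fcna, chr2:25628031-25628224, minus strand: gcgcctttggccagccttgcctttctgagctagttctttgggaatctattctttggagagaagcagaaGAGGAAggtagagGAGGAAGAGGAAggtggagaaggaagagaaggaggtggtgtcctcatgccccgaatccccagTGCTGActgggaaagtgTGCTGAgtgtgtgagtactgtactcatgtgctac
C6, chr15:4726960-4727174, plus strand: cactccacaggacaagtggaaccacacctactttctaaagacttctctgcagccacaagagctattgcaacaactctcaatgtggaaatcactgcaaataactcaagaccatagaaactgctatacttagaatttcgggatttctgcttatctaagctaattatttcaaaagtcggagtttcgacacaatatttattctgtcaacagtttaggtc

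In the full windows of 300 bases, TGCTGA stood once in C1qb, 2 times in Fcna and once in C3, and not in C1qc, Cfp or C6. GAGGAA stood once in C1qb, once in C1qc, 4 times in Fcna (3 in the stretch shown) and 2 times in Cfp, and not in C3 or C6. Among all 32851 promoter windows of that length, 19.5% held TGCTGA and 28.3% held GAGGAA. A match of letters describes the sequence and shows no binding.

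Values are TPM (transcript abundance per length, scaled to a common total), given as mean ± SD over 3 libraries or per library in the order of sorts 1, 2A and 2B. Sums of the listed values ran from 278579 to 382828 TPM, and since TPM carries no counts of reads the depth is unknown. The listed values thus did not share a total. All CX3CR1-GFP sums (at most 301604 TPM) were below those of the other libraries (at least 324050 TPM). Siglece, the most abundant listed gene, held a large part of each sum. Its mean was 71444 TPM for CX3CR1-GFP, 110065 TPM for CCR2-RFP and 114316 TPM for double-negative libraries. The main fit used TPM as listed and did not level these sums. Library pairs correlated at r = 0.904 to 0.964 within a population over 10136 genes. The genes of the gate followed the labels: Ccr2 was 95.4 to 115 TPM in CCR2-RFP libraries and at most 6.68 elsewhere, while Cx3cr1 was at 4.13 to 16.4 TPM in CX3CR1-GFP libraries and listed at 0 in the other 6. All 6 macrophage markers (Csf1r, Adgre1, Mertk, Fcgr1, Cd68 and Mrc1) passed the filter on low values, and their summed TPM was 700 to 795 in double-negative, 273 to 327 in CCR2-RFP and 627 to 712 in CX3CR1-GFP libraries. Most of it was Mrc1 and Csf1r (349 and 217 TPM in double-negative 1). The markers did not fall alike in CCR2-RFP libraries. Fcgr1 was 2.01, 0.106 and 0.267 TPM there against at least 10.5 elsewhere, whereas Cd68, at 86.5, 55.8 and 66.2 TPM, overlapped both other populations. In sorted bulk RNA, fewer cells of a type and less RNA per cell cannot be told apart. Hepatocyte markers summed to at most 0.695 TPM in any library, with Ahsg at 0 in all 9. Fibroblast markers summed to 10.3 to 108 TPM in double-negative, 12.6 to 60.4 in CCR2-RFP and 39.3 to 125 in CX3CR1-GFP libraries, and no fibroblast marker was at 0 throughout. Mesothelial markers summed to 0.687 to 6.23 TPM over all 9. Skeletal muscle markers summed to 714 TPM in CCR2-RFP 2A and 1252 in CX3CR1-GFP 2A, against 31.0 to 268 in the other 7 libraries.

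**Figure D1:**
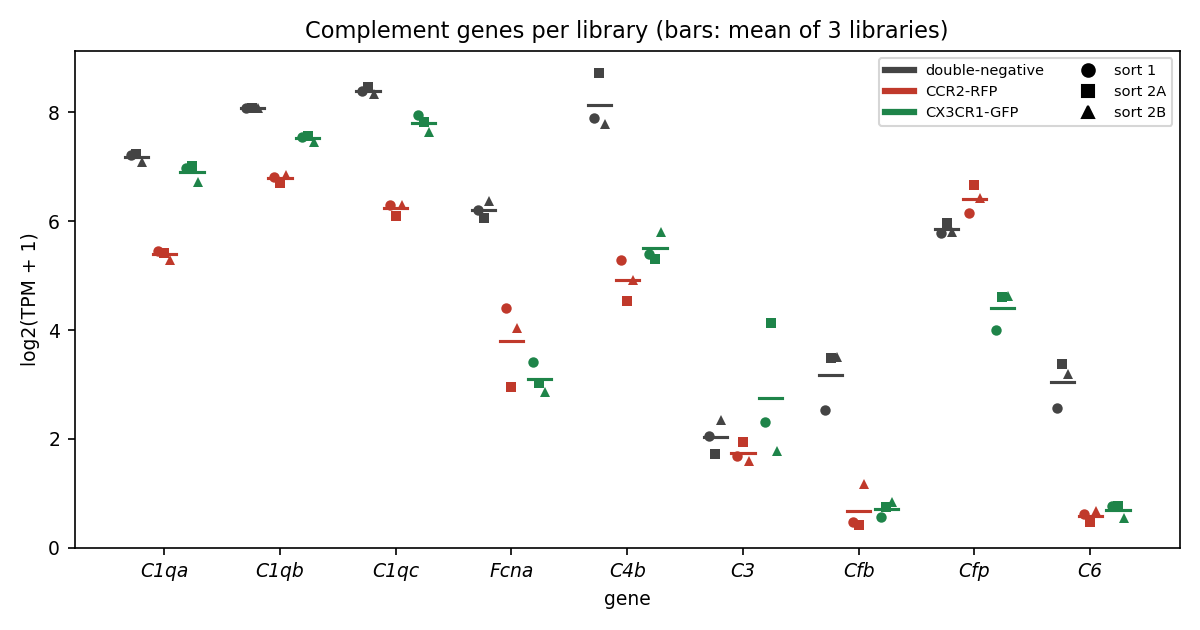
Expression of the 9 complement genes in each library: the vertical axis is log2(TPM + 1), the horizontal axis lists the genes, colours mark the 3 populations, shapes the sort labels and short bars the mean of 3 libraries. The double-negative libraries lie highest for C1qa, C1qb, C1qc, Fcna, C4b, Cfb and C6, whereas Cfp is highest in CCR2-RFP cells, at 85.1 ± 15.3 TPM.

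In TPM as listed, all 3 C1q chain genes were high in double-negative cells, intermediate in CX3CR1-GFP cells and low in CCR2-RFP cells. The libraries of these populations did not overlap. The smallest step, C1qa between double-negative and CX3CR1-GFP cells, did not pass (adjusted p = 0.358 by limma). C1qc, the C chain gene, was 337, 352 and 321 TPM in double-negative, 246, 224 and 198 TPM in CX3CR1-GFP and 78.0, 67.8 and 77.6 TPM in CCR2-RFP libraries. C1qb, the B chain gene, was 271, 269 and 270 TPM in double-negative, 185, 188 and 175 TPM in CX3CR1-GFP and 111, 104 and 115 TPM in CCR2-RFP libraries. C1qa, the A chain gene, was 147, 149 and 135 TPM in double-negative, 125, 128 and 104 TPM in CX3CR1-GFP and 43.1, 42.0 and 38.0 TPM in CCR2-RFP libraries. The C chain gene stood at rank 60 to 67 of all listed genes by TPM in double-negative libraries, at 84 to 95 in CX3CR1-GFP and at 370 to 410 in CCR2-RFP libraries.

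Against double-negative cells, all 3 chain genes fell in CCR2-RFP cells. On the log2(TPM + 1) scale the change was -2.16 for C1qc (SE 0.129, adjusted p = 3.39e-06 by limma with Benjamini-Hochberg adjustment over all genes tested). It was -1.78 for C1qa (SE 0.131, adjusted p = 8.20e-06) and -1.29 for C1qb (SE 0.111, adjusted p = 2.09e-05). Against CCR2-RFP cells, all 3 were higher in CX3CR1-GFP cells, by 1.57 for C1qc (adjusted p = 2.18e-05), 1.51 for C1qa (adjusted p = 2.65e-05) and 0.73 for C1qb (adjusted p = 0.000845).

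The difference between the 2 populations labelled as sessile was smaller. In CX3CR1-GFP against double-negative cells C1qc changed by -0.60 (SE 0.129, adjusted p = 0.0390) and C1qb by -0.56 (SE 0.111, adjusted p = 0.0259), while C1qa, at -0.27 (SE 0.131, adjusted p = 0.358), did not pass. The C1qc call was lost with the sort label as a block (adjusted p = 0.0544) and in 14 of 18 alternatives, over a range of 0.0227 to 0.138. These included leaving out any 1 double-negative library (0.0943 to 0.138), any 1 CX3CR1-GFP library (0.0521 to 0.0907), CCR2-RFP 1 (0.0645) or CCR2-RFP 2B (0.0651). The C1qb call was lost in 10 of 18, among them leaving out any 1 double-negative (0.0852 to 0.111) or CX3CR1-GFP library (0.0544 to 0.0684), over a range of 0.0137 to 0.111.

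The balance of the chains within a library differed between populations. C1qb stood at 1.42, 1.53 and 1.48 times the TPM of C1qc in CCR2-RFP libraries, so the B chain gene was the most abundant of the 3 there. In double-negative libraries this ratio was 0.805, 0.764 and 0.842, and in CX3CR1-GFP libraries 0.753, 0.838 and 0.884, with the C chain gene most abundant in all 6. C1qb relative to C1qa was 2.69 ± 0.296 in CCR2-RFP, 1.88 ± 0.109 in double-negative and 1.55 ± 0.119 in CX3CR1-GFP cells. C1qc relative to C1qa was 2.34 ± 0.0479 in double-negative cells, above both CCR2-RFP (1.82 ± 0.214) and CX3CR1-GFP cells (1.88 ± 0.109), which overlapped each other. These ratios are unaffected by any scaling of whole libraries. They describe 3 libraries per population and were not tested.

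**Figure D2:**
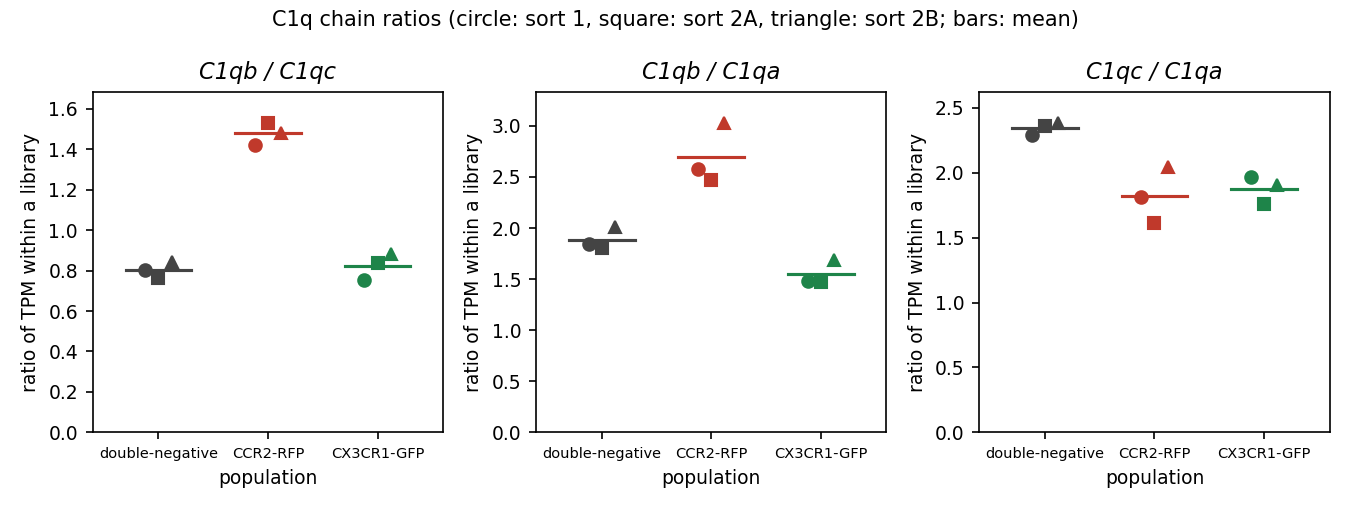
Ratios of TPM between C1q chain genes within each library on the vertical axes, which start at 0, by population on the horizontal axes, with shapes for the sort labels and bars for the mean of 3 libraries. The 3 CCR2-RFP libraries have C1qb over C1qc between 1.42 and 1.53, above all 6 others.

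Fcna and C4b were highest in double-negative cells. C4b had larger log2 changes than the C1q genes in both comparisons with that population, and Fcna in CX3CR1-GFP against double-negative cells. In CCR2-RFP against double-negative cells Fcna was near C1qc (-2.16). Over the libraries left out, the change there ranged from -2.71 to -1.99 for Fcna and from -2.20 to -2.10 for C1qc. Fcna, whose product ficolin A recognizes sugars and acetylated groups, was 72.8, 65.7 and 81.7 TPM in double-negative, 20.1, 6.78 and 15.5 TPM in CCR2-RFP and 9.67, 7.20 and 6.24 TPM in CX3CR1-GFP libraries. The double-negative libraries were all above the other 6, which overlapped between the reporter-positive populations. The log2 change of Fcna was -2.41 in CCR2-RFP cells (SE 0.321, adjusted p = 0.000329) and -3.11 in CX3CR1-GFP cells (SE 0.321, adjusted p = 0.00100). Between the reporter-positive populations the difference of -0.70 did not pass (adjusted p = 0.140), but it was -1.12 (adjusted p = 0.00579) without CCR2-RFP 2A, and -0.40 at its smallest over the libraries left out. An antisense RNA that shares 90 exon bases with Fcna, Fcnaos, was listed at 0 in all libraries.

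C4b, which encodes complement C4, the partner of C2 in the classical and lectin C3 convertase, was 236, 419.7 and 219.6 TPM in double-negative libraries. CCR2-RFP libraries had 38.2, 22.1 and 29.4 TPM and CX3CR1-GFP libraries 41.1, 38.6 and 54.8 TPM. All 3 double-negative libraries were above the other 6, and double-negative 2A was the highest of its population. C4b changed by -3.21 in CCR2-RFP cells (SE 0.273, adjusted p = 2.04e-05) and by -2.63 in CX3CR1-GFP cells (SE 0.273, adjusted p = 0.00100). In CX3CR1-GFP against CCR2-RFP cells the difference of 0.58 did not pass (adjusted p = 0.146), although these libraries did not overlap. Fibroblasts express C4b too, and the fibroblast marker sum was 70.2, 10.3 and 108 TPM in the double-negative libraries, lowest in 2A, where C4b was highest. The part of fibroblasts in the C4b values was not tested. C4a, a near-identical neighbour on chromosome 17, was listed at 0.0264 to 0.797 TPM, and how reads were split between the pair is uncertain.

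The alternative pathway genes did not share 1 pattern. Cfb, the serine protease of the alternative C3 convertase, was 4.77, 10.2 and 10.4 TPM in double-negative, 0.382, 0.334 and 1.25 TPM in CCR2-RFP and 0.480, 0.682 and 0.798 TPM in CX3CR1-GFP libraries. It was thus low outside double-negative cells, and the reporter-positive libraries overlapped. The change was -2.49 in CCR2-RFP (SE 0.308, adjusted p = 0.000205) and -2.45 in CX3CR1-GFP cells (SE 0.308, adjusted p = 0.00264). Between the reporter-positive populations it was 0.04 (SE 0.308, adjusted p = 0.944), and its sign turned without CCR2-RFP 1, CCR2-RFP 2A or CX3CR1-GFP 2B (-0.10 to -0.03). Of the 2825 exon bases of Cfb, 2246 are shared with Gm20547, a protein-coding gene model on the same strand that is not among the listed gene symbols.

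Cfp, which encodes properdin, the protein that stabilizes the alternative convertase, followed another order. CCR2-RFP libraries had 69.7, 100.3 and 85.3 TPM, double-negative libraries 54.1, 61.5 and 55.0 TPM, and CX3CR1-GFP libraries 15.0, 23.3 and 23.8 TPM. None of the 3 populations overlapped another. Cfp changed by -1.44 in CX3CR1-GFP against double-negative cells (SE 0.199, adjusted p = 0.00391) and its mean TPM was 4.11 times higher in CCR2-RFP than in CX3CR1-GFP cells (adjusted p = 5.68e-05). In CCR2-RFP against double-negative cells it was 0.56 (SE 0.199, adjusted p = 0.0670) and did not pass. With the sort label as a block that comparison passed (adjusted p = 0.0295), as it did with a filter at 5 TPM (0.0479), in the fit of only these 2 populations (0.0292) and without CX3CR1-GFP 1 (0.0291), over a range of 0.0291 to 0.287.

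C3, the protein on which all pathways converge, was low and did not pass in any comparison. Double-negative libraries had 3.15, 2.32 and 4.08 TPM, CCR2-RFP libraries 2.20, 2.87 and 2.02 TPM, and CX3CR1-GFP libraries 3.98, 16.6 and 2.45 TPM. The value in CX3CR1-GFP 2A stood apart from the 8 others, which all overlapped. In CX3CR1-GFP against double-negative cells the change was 0.70 (SE 0.492, adjusted p = 0.563) and became 0.01 without that library (adjusted p = 0.996). CX3CR1-GFP 2A also had the highest skeletal muscle (1252 TPM), neutrophil (20.4), mesothelial (6.23), adipocyte (2.94) and hepatocyte (0.695) marker sums of all libraries. Its fibroblast (39.3 TPM), endothelial (1.55) and large peritoneal cavity macrophage (0.725) sums were the lowest of its population. The part of other cells in the C3 value was not tested. Against CCR2-RFP cells C3 changed by 1.00 (adjusted p = 0.166), by 0.31 without CX3CR1-GFP 2A (adjusted p = 0.440) and by 1.48 without CX3CR1-GFP 2B (adjusted p = 0.0436).

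C6, a component of the membrane attack complex, was 4.93, 9.36 and 8.10 TPM in double-negative, 0.532, 0.386 and 0.608 TPM in CCR2-RFP and 0.705, 0.698 and 0.464 TPM in CX3CR1-GFP libraries. It passed the filter on low values (at least 1 TPM in at least 3 libraries) only through the 3 double-negative libraries, so once kept it had to differ. The log2 changes were -2.45 in CCR2-RFP (SE 0.235, adjusted p = 3.83e-05) and -2.35 in CX3CR1-GFP cells (SE 0.235, adjusted p = 0.000961). In mean TPM, double-negative cells stood at 14.7 times the level of CCR2-RFP cells, since the added 1 TPM shrinks the log2 change of low genes. Cfb reached 1 TPM in 3 double-negative libraries, 1 CCR2-RFP library and 0 CX3CR1-GFP libraries. It was in the same position in CX3CR1-GFP against double-negative cells, and nearly so in CCR2-RFP against double-negative cells.

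**Figure D3:**
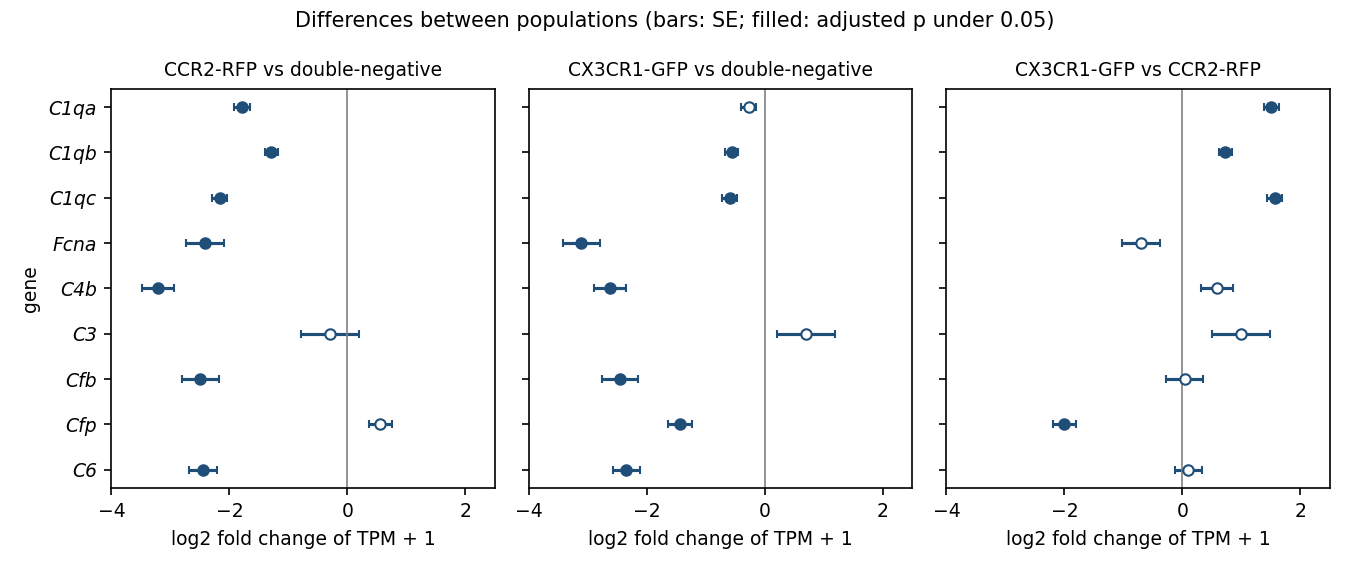
Log2 fold changes of TPM + 1 on the horizontal axes for the 9 genes on the vertical axis, in the 3 comparisons, with SE as bars and filled points for adjusted p under 0.05. C4b has the most negative value in CCR2-RFP against double-negative cells (-3.21), and Fcna in CX3CR1-GFP against double-negative cells (-3.11).

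In CCR2-RFP against double-negative cells 7 of the 9 genes were called lower, 0 higher and 2 (C3 and Cfp) did not pass, against 9.88% of the 10136 genes tested that were called lower, 14.9% called higher and 24.8% called in either direction. The median log2 change was -2.16 over the 9 genes and 0.09 over all genes tested. In CX3CR1-GFP against double-negative cells 7 of 9 were called lower and 2 (C1qa and C3) did not pass, where 1.61% of all genes tested were called lower, 1.16% higher and 2.77% in either direction. The median was -1.44 over the 9 genes and -0.03 over all. This count fell to 4 when double-negative 1, 2A or 2B was left out, because C1qb and C1qc lost their calls and C6 left the test. The count of all genes called fell as well, from 281 to 129 without double-negative 1, 126 without 2A, 138 without 2B and 165 without CX3CR1-GFP 2A. In CX3CR1-GFP against CCR2-RFP cells 3 of 9 were called higher (8.96% of all genes tested), 1 lower (17.3%) and 5 did not pass, 26.3% of all genes being called in either direction, with medians of 0.58 and -0.11. Leaving out C6, 6, 6 and 4 of 8 were called in the 3 comparisons. Cfb, kept mainly through its double-negative libraries, is still among those called in both comparisons with double-negative cells. For 8, 8 and 5 of the 9 genes the libraries of the 2 populations did not overlap, which held for 42.7%, 21.1% and 39.4% of all genes tested. C6 in both comparisons with double-negative cells, and Cfb in CX3CR1-GFP against double-negative cells, had to be among the 8 once they passed the filter. The comparisons share libraries in pairs, so their counts are not independent. The 9 genes were chosen with earlier results of these data known, so the counts are no test of the list. Rescaling TPM without Siglece (the most abundant listed gene), Rn18s, mitochondrial and ribosomal protein genes shifted the median of all genes by -0.16, 0.08 and 0.24 in the 3 comparisons. It changed the split of higher and lower calls from 1512 and 1001 to 1001 and 1246, from 118 and 163 to 152 and 126, and from 908 and 1758 to 1408 and 990. No member changed sign under it.

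Other complement genes were read from a list of 47 symbols, of which 46 were in the table and 21 passed the filter on low values. Of these 21, 4 were higher and 7 lower in CCR2-RFP against double-negative cells, 1 was higher and 4 lower in CX3CR1-GFP against double-negative cells, and 9 were higher and 4 lower in CX3CR1-GFP against CCR2-RFP cells. Over all genes tested the shares called higher and lower were 14.9% and 9.88%, 1.16% and 1.61%, and 8.96% and 17.3% in these comparisons, so the 4 of 21 higher in the first and the 4 of 21 lower in the last were near the share of all genes. The medians over the 21 were -0.44, -0.21 and 0.67. The count of 5 in the second comparison ranged from 1 to 5 over the libraries left out, with 1 without double-negative 1, double-negative 2B or CX3CR1-GFP 2A, 2 without double-negative 2A or CX3CR1-GFP 2B and 3 without CX3CR1-GFP 1. C1rb was listed at 0 in all 9 libraries. Of the terminal pathway genes Hc (which encodes C5), C7, C8a, C8b, C8g and C9, 0 passed the filter, so C6 was the terminal component that did.

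Colec12 and C2 were highest in double-negative cells as well. Colec12, a collectin scavenger receptor, was 22.4 ± 4.85 TPM in CX3CR1-GFP against 55.7 ± 1.46 TPM in double-negative cells (-1.29, adjusted p = 0.0175) and 2.15 ± 1.07 TPM in CCR2-RFP cells. C2, which lies beside Cfb and was chosen after its values were seen, was 4.53 ± 0.733 TPM in double-negative, 1.47 ± 0.589 in CX3CR1-GFP and 0.230 ± 0.147 in CCR2-RFP cells, with no overlap. It changed by -2.17 in CCR2-RFP (adjusted p = 6.71e-05) and by -1.18 in CX3CR1-GFP against double-negative cells (adjusted p = 0.0216). These calls between CX3CR1-GFP and double-negative cells dropped out in 6 of 18 alternatives for Colec12 (0.00348 to 0.0754) and 8 of 17 for C2 (0.0117 to 0.0988). Both were lost without any 1 double-negative library and without CX3CR1-GFP 2A or 2B.

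Of the 10 receptor genes tested, 4 were higher and 4 lower in CCR2-RFP against double-negative cells, where 14.9% of all genes were called higher and 9.88% lower. C3ar1, the receptor gene for the C3a fragment, was 187, 170 and 195 TPM in double-negative, 182, 175 and 206 TPM in CX3CR1-GFP and 49.9, 43.5 and 63.7 TPM in CCR2-RFP libraries. The first 2 populations overlapped (0.03, SE 0.157, adjusted p = 0.956), and CCR2-RFP was lower than double-negative by -1.81 (adjusted p = 2.18e-05). C5ar1, the C5a receptor gene, had its highest mean in double-negative cells (151 ± 26.1 TPM), whose libraries overlapped those of CX3CR1-GFP cells (114 ± 9.10 TPM). CCR2-RFP cells, at 28.2 ± 8.16 TPM, differed by -2.40 from double-negative cells (adjusted p = 2.09e-05), and CX3CR1-GFP cells were 2.01 above them (adjusted p = 7.09e-05). Vsig4, which encodes the macrophage receptor CRIg for C3 fragments, was 10.2, 18.0 and 13.4 TPM in double-negative libraries and 0.392 to 3.21 TPM in the other 6. It changed by -3.06 in CCR2-RFP (adjusted p = 6.13e-05) and by -2.29 in CX3CR1-GFP cells (adjusted p = 0.00391).

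Cd93, whose product was first described as a C1q receptor, was highest in CX3CR1-GFP cells, at 61.4, 55.2 and 65.5 TPM, while double-negative libraries had 16.1, 25.1 and 12.2 TPM and CCR2-RFP libraries 3.97, 0.968 and 1.53 TPM. It was higher by 1.77 in CX3CR1-GFP than in double-negative cells (SE 0.337, adjusted p = 0.0211), a call lost in 7 of 18 alternatives (0.00403 to 0.0988), among them without double-negative 1 or 2B or any 1 CX3CR1-GFP library, and lower by -2.63 in CCR2-RFP cells (adjusted p = 0.000258). Endothelial cells also express Cd93. Their markers summed to 0.580 to 3.87 TPM in double-negative, 0.765 to 2.12 in CCR2-RFP and 1.55 to 4.96 in CX3CR1-GFP libraries, highest in CX3CR1-GFP 1, and their part in the Cd93 values was not tested. Itgb2, the beta chain gene of complement receptors 3 and 4, went the other way, at 46.4 ± 3.58 TPM in CCR2-RFP, 21.3 ± 1.68 in double-negative and 13.4 ± 1.34 in CX3CR1-GFP cells. It rose by 1.09 in CCR2-RFP against double-negative cells (adjusted p = 0.000282). CD11b, the partner of its product in complement receptor 3, was part of the gate. Calr, the calreticulin gene, stood at 37.2 ± 1.99 TPM in double-negative cells and at 54.2 ± 8.17 in the CCR2-RFP population (0.52, adjusted p = 0.0379), a call lost in 8 of 18 alternatives (0.0253 to 0.216), among them without any 1 double-negative library, CCR2-RFP 2A or CCR2-RFP 2B.

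**Figure D4:**
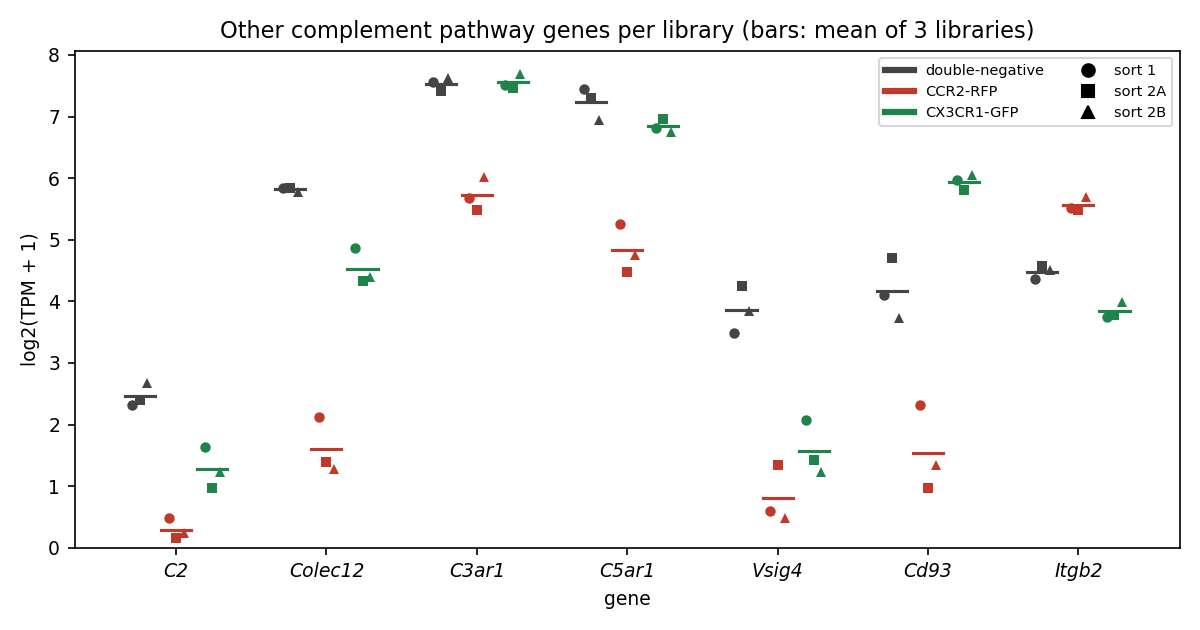
Expression of 7 other complement genes in each library: the vertical axis is log2(TPM + 1), the horizontal axis lists the genes, colours mark populations, shapes the sort labels and bars the mean of 3 libraries. Cd93 is highest in CX3CR1-GFP libraries and Itgb2 in CCR2-RFP libraries, while C3ar1 overlaps between double-negative and CX3CR1-GFP cells.

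The C1q genes followed each other closely across libraries, and so did C4b, Cfb and C6. Over the 9 libraries the log2 values of C1qa, C1qb and C1qc correlated at r = 0.946 to 0.986, and those of C4b, Cfb and C6 at r = 0.943 to 0.984. Fcna correlated with C4b, Cfb and C6 at 0.884 to 0.925, and Cfp with C1qa at -0.595. With the same 3 genes C1qb correlated at 0.804 to 0.884, C1qc at 0.690 to 0.803 and C1qa at 0.583 to 0.718. These values describe 9 libraries in 3 populations and share the differences between the populations. C6 was kept only, and Cfb mainly, through the double-negative libraries. Their correlation with genes high in that population was thus largely fixed by the filter. Of 2997 genes with at least 10 TPM in their highest population, the 5 most like the mean of the C1q genes were Etv1 (r = 0.998), Ctsc (0.994), Cln8 (0.994), Smagp (0.994) and Dse (0.992). Etv1 encodes a transcription factor and Ctsc a lysosomal protease. Ctsc was 456 TPM in double-negative, 347 in CX3CR1-GFP and 166 in CCR2-RFP cells on average.

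Clec10a, a lectin gene with a mean of 189 TPM in double-negative cells against 33.6 (CCR2-RFP) and 31.5 (CX3CR1-GFP), was among the 5 genes most like each of Fcna (r = 0.959), C4b (0.970), Cfb (0.972) and C6 (0.976). The gene most like Fcna was Cd209f (0.970), a C-type lectin gene, followed by Pepd, Clec10a, Fam234a and Ednrb. For C4b the list was Enpep (0.983), Fxyd2, Aldh2, Clec10a and Dnm1. For Cfb it was Clec10a, Trex1, Hexa, Cd209b and Osbpl9, and for C6 it was Trex1 (0.977), Clec10a, Cd209b, C4b and Enpep. Since Cfb mainly and C6 only passed the filter through double-negative libraries, their likeness to genes high there was largely fixed in advance. Cfp was most like H2-D1 (0.976), an MHC class I gene, followed by Mamdc2, Smpdl3a, Ms4a8a and Pltp. The genes most like C3 were Rtn4 (0.933), Etnk1, Ireb2, Park7 and Ifngr2, and their likeness rested on CX3CR1-GFP 2A, without which the 5 values ranged from -0.191 to 0.773.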

How the data were processed

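Per the submitters' processing notes, reads were handled with bcl2fastq 2.18, cutadapt 1.8.3 and Salmon 0.11.3 on mm10. Per the labels, each library started from 1 ng of total RNA and was sequenced as paired reads of 75 bases. The authors deposited TPM per gene symbol, 1 column per library. Which annotation and strand setting were used, and how transcripts were summed, is not given in the sources used here. Columns were matched to samples by title; the description field names the other reporter-positive population for 6 samples and was not used.

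The 10136 genes that reached 1 TPM in 3 or more of the 9 libraries were fitted as log2(TPM + 1) with limma 3.58.1 in R 4.3.3 (1 mean per population, eBayes with intensity trend, 2-sided tests, Benjamini-Hochberg adjustment over all 10136), and called at adjusted p below 0.05. Sort labels were read as animals from the series design; log2 deviations from population means correlated at 0.0315 to 0.205 between libraries of the same sort and at -0.160 to 0.112 between others. The fit with the sort label as a block was an alternative. The p-values measure the spread between these libraries. Coordinates are from GENCODE M21 (GRCm38, the assembly of mm10; 85.9% of symbols matched) and promoters from RefSeq.

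The members and lists were chosen with earlier results of these data known. All 9 members were named, with those other complement genes that were called and reached a mean of 10 TPM in their highest population, any at 0 throughout (1 gene that met this rule is not reported here), and the 5 genes closest by Pearson r to each profile, leaving out predicted, ribosomal protein, mitochondrial and small RNA genes. Lists of markers also covered monocytes, dendritic cells, large peritoneal cavity macrophages, B cells, T and NK cells, neutrophils, mast cells, eosinophils and adipocytes.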

Additional observations from a re-analysis of the deposited data

How the results depend on the processing

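Over 18 alternatives per gene and comparison (fewer where C6, Cfb or C3 left the test at the 5 TPM filter, C6 also without a double-negative library, and C6 and Cfb in the fit of only the reporter-positive populations), 432 of 466 values for the 9 genes kept their direction and side of the threshold. The alternatives were pseudocounts of 0.1 and 5, no filter or one at 5 TPM, 2 rescalings, the replicate block, no intensity trend, only 2 populations, and each library left out. The replicate block gave Cfp 0.56 in CCR2-RFP against double-negative cells (now called) and C1qc -0.60 in CX3CR1-GFP against double-negative cells (no longer called), and changed no other call of the 9 genes. Cfp was also called at 0.56 with the 5 TPM filter and with only 2 populations. In CX3CR1-GFP against double-negative cells C1qb lost its call at -0.56 without a filter, without the trend and with 2 populations, and at -0.46 when rescaled without Siglece and the other abundant genes. C1qc lost it at -0.60 in the first 3 of these, -0.50 when rescaled that way and -0.59 with median-of-ratios scaling. When rescaled without Siglece, C4b was called at 0.88 between the reporter-positive populations. Without a filter 146 genes were called in CX3CR1-GFP against double-negative cells, and the other complement genes called there numbered 1 without a filter and 3 at pseudocount 0.1. The cause was not tested.

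Leaving out 1 library gave ranges of 0.44 to 0.69 for Cfp in CCR2-RFP against double-negative cells and, in CX3CR1-GFP against double-negative cells, -0.58 to -0.53 for C1qb, -0.67 to -0.52 for C1qc, 126 to 259 genes called, 1 to 5 other complement genes and 4 to 7 of the 9 members called. In CX3CR1-GFP against CCR2-RFP cells Fcna ranged from -1.12 to -0.40, C3 from 0.31 to 1.48 and Cfb from -0.10 to 0.28. Signs turned for Cfb there (-0.07, -0.10 and -0.03 without CCR2-RFP 1, CCR2-RFP 2A and CX3CR1-GFP 2B). In CX3CR1-GFP against double-negative cells they turned for C3ar1 (-0.041 to 0.075 over the libraries left out, below 0 without double-negative 2A or CX3CR1-GFP 2B), Calr (0.081 when rescaled without Siglece; -0.13 to 0.087, above 0 without double-negative 2A or CX3CR1-GFP 2B) and C1qbp (-0.39 to 0.080, above 0 without CX3CR1-GFP 2A), none of which was called there. The likeness of Ifngr2 to C3 ranged from -0.191 (without CX3CR1-GFP 2A) to 0.942. Likeness under other scales and without single libraries was examined after seeing the data.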

Other observations

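The summed TPM of the 3 C1q genes was set against the summed TPM of the 6 macrophage markers within each library, a ratio chosen after the values were seen. Double-negative cells had 0.989 ± 0.0408 (SD, n = 3), CCR2-RFP cells 0.769 ± 0.0537 and CX3CR1-GFP cells 0.769 ± 0.0155, and the double-negative libraries (0.962 to 1.04) did not overlap the others (0.710 to 0.814). The difference was not tested. The ratio depends on the markers summed. Cd68 was 86.5, 55.8 and 66.2 TPM in CCR2-RFP and 79.6, 71.8 and 65.8 in CX3CR1-GFP libraries, while the other markers were lower in every CCR2-RFP library. The equal means of the reporter-positive populations therefore hold for this marker set only, and no other set was tried.

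Markers of the remaining cell types were also read. Monocyte markers, which include the gate gene Ccr2, summed to 1132 to 1511 TPM in double-negative, 2029 to 2546 in CCR2-RFP and 986 to 1187 in CX3CR1-GFP libraries. Most of this was Lyz2 (1931, 1989 and 2429 TPM in CCR2-RFP libraries), and Ly6c2, Plac8 and Chil3 were at most 3.41 TPM anywhere. Dendritic cell markers summed to 24.2 to 60.5, 87.7 to 137 and 8.18 to 10.7 TPM in the same order. Most of that was Cd209a (79.2, 121 and 79.4 TPM in CCR2-RFP libraries). Flt3, Xcr1 and Clec9a were also highest in CCR2-RFP libraries, at up to 6.47 TPM, while Zbtb46 overlapped between populations and Ccr7 was at most 0.893 TPM. Markers of large peritoneal cavity macrophages summed to 17.3 to 44.4, 7.40 to 54.1 and 0.725 to 24.7 TPM. Neutrophil markers reached at most 20.4 TPM, mast cell markers 33.6, T and NK cell markers 6.73, B cell markers 3.62, adipocyte markers 2.94 and eosinophil markers 1.37 TPM in any library.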
